A study of Mus musculus with 2 samples.

Results

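The genes described here encode enzymes of cholesterol synthesis and a sensor of sterol levels. They are Hmgcs1, Idi1, Fdps, Fdft1, Sqle, Cyp51 and Insig1, 7 genes in all, and every probe set named to 1 of them alone was taken. Of these, 6 genes were measured, on 14 probe sets, out of 10313 genes measured in the table. Insig1 had no probe set in the annotation used here and was not measured.

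The cells were mouse embryonic stem cells of the line 46C, in which a green fluorescent protein reporter sits at the neural gene Sox1. Of the 2 cultures, 1 overexpressed the long noncoding RNA lincU and 1 was the control. Both grew over a feeder layer, with 15% serum and leukaemia inhibitory factor at 1000 U/ml, and the feeders were taken away before RNA extraction. The sources used here do not say how lincU was overexpressed or whether the cells were a single clone. The comparison addresses the effect of raised lincU on the transcriptome. With 1 culture per group, that effect cannot be told apart from other differences between the cultures. The study's named subjects are naive pluripotency and ERK signalling, not sterols.

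Animal cells build cholesterol from acetyl-CoA through mevalonate, isoprenoid diphosphates, squalene and lanosterol. The genes of the pathway are switched on together by the transcription factors SREBP, which are encoded by Srebf1 and Srebf2. When sterols run low, the escort protein SCAP carries SREBP from the endoplasmic reticulum to the Golgi, where it is cut and freed. When sterols are plentiful, the INSIG proteins hold SCAP back in the endoplasmic reticulum. The same isoprenoid intermediates also feed protein prenylation, dolichol and ubiquinone.

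Expression was measured on 1 Affymetrix 3' array per group, so the differences have no replicate check and no p-value can be given. The number of arrays limits the precision, and each value describes these 2 arrays. The deposited values are log2 signals, with a median over all probe sets of 7.81 on the overexpression array and 7.87 on the control array. A gene was called bright if its higher array was at or above the median of that array's named probe sets, which was 7.90 on the overexpression array and 7.96 on the control array. Low signals were raised to a floor, the 25th percentile, which was 5.65 on the overexpression array and 5.73 on the control array. Differences are log2, overexpression minus control. The only repeated measurements were different bright probe sets of a gene, whose differences had an SD of 0.23 over 1732 genes. It was 0.32 in the 433 dimmest of these genes and 0.16 in the 433 brightest, and the pooled 0.23 is used throughout. That SD holds no variation between cultures. Of 9 embryonic stem cell markers measured, all were bright, with log2 signals from 11.56 to 14.83 in overexpressing cells and from 11.03 to 14.85 in control cells. Of 10 feeder fibroblast markers measured, 9 were bright and none was listed at 0. Their linear signals summed to a log2 value of 12.84 in overexpressing cells and 12.75 in control cells, and the part of feeder RNA in the values below was not tested.

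On the probe set of highest signal, 5 of the 6 measured members had nearly the same signals in lincU-overexpressing cells as in control cells. The other, the squalene synthase gene Fdft1, was lower. The 6 measured members had a median log2 difference of 0.03. The median over all 5609 bright genes was 0.00. No member was 2-fold higher or 2-fold lower, past which stood 1.53% and 1.3% of all bright genes. None was 1.5-fold higher or 1.5-fold lower either, where 4.65% and 6.69% of all bright genes stood. Counts of 0 among 6 genes are therefore near what the share over all bright genes would give, and show nothing particular to these genes.

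**Figure D1:**
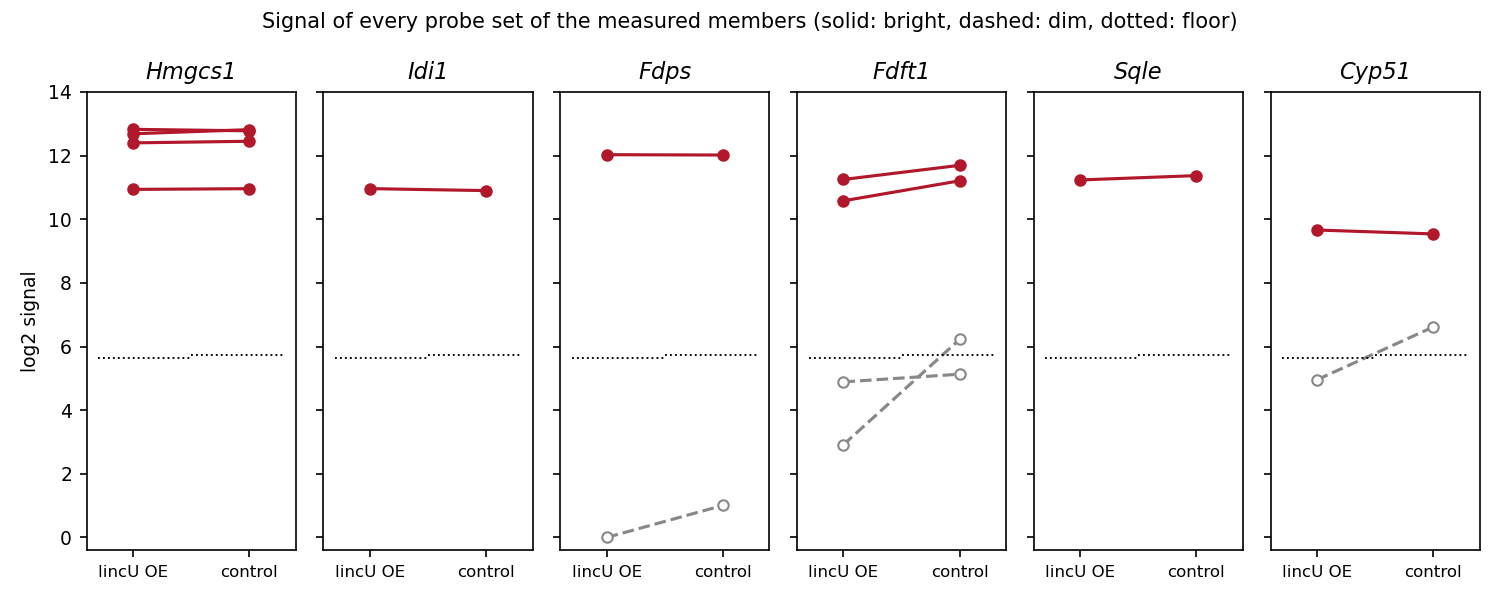
Log2 signal of every probe set of the 6 measured genes, with the lincU overexpression array (lincU OE) left of the control array in each panel. Solid lines are bright probe sets, dashed lines dim ones, and the dotted line is the floor of each array. The lines of Hmgcs1, Idi1, Fdps, Sqle and Cyp51 are nearly level where bright, while both bright lines of Fdft1 are lower on the overexpression side.

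The early steps of the pathway were represented by Hmgcs1, Idi1 and Fdps. Hmgcs1 encodes the cytosolic HMG-CoA synthase, an early enzyme on the way to mevalonate. Its probe set of highest signal, 1433445_x_at, had a log2 signal of 12.83 in overexpressing cells and 12.78 in control cells, a difference of 0.05. Its other 3 probe sets were all bright, with 12.69 against 12.82 on 1433443_a_at, 12.40 against 12.45 on 1433444_at and 10.94 against 10.96 on 1433446_at, overexpressing against control cells. Those 3 differed by -0.13, -0.05 and -0.02. With 4, Hmgcs1 had the most bright probe sets of the genes here, and its mean difference was -0.04 ± 0.07 (SD over 4 probe sets). The sign of its difference depended on the probe set, and all 4 values were smaller than the SD between probe sets of a gene.

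Idi1 encodes the isomerase that turns isopentenyl diphosphate into dimethylallyl diphosphate. Its only probe set, 1423804_a_at, had a log2 signal of 10.96 in overexpressing cells and 10.90 in control cells, a difference of 0.06. Fdps encodes farnesyl diphosphate synthase, the source of the farnesyl group for both sterols and prenylated proteins. Its bright probe set, 1423418_at, had 12.03 in overexpressing cells and 12.02 in control cells, a difference of 0.01. Of all bright genes, 2.89% differed by less than Fdps and 18.2% by less than Idi1. The second probe set of Fdps, 1438150_at, was listed at 0 in overexpressing cells and at 1.01 in control cells, under the floor on both arrays, and gives no difference.

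Fdft1 encodes squalene synthase, which joins farnesyl diphosphate units into squalene and so commits them to sterols. On its probe set 1438322_x_at the log2 signal was 11.25 in overexpressing cells and 11.70 in control cells, a difference of -0.44. On its probe set 1448130_at it was 10.58 in overexpressing cells and 11.21 in control cells, a difference of -0.63. Both bright probe sets were thus lower in overexpressing cells, by more than the SD of 0.23, with a mean of -0.54 ± 0.13 (SD over 2 probe sets). The first was 0.735 times and the second 0.647 times the control signal, so the second lies just past 1.5-fold and the first does not. The first is of a type that can bind related transcripts, and without such probe sets Fdft1 stood at -0.63 and was counted as 1.5-fold lower. Of all bright genes, 81.2% differed by less than the first probe set and 90.5% by less than the second. Of its dim probe sets, 1438918_at had 4.89 in overexpressing cells and 5.13 in control cells, both under the floor. The other, 1438919_x_at, had 2.92 in overexpressing cells, under the floor, and 6.23 in control cells, so its difference of -0.57 depends on where the floor is set.

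After squalene, the pathway was represented by Sqle and Cyp51. Sqle encodes squalene epoxidase, a rate-limiting oxygen-dependent step. Its only probe set, 1415993_at, had a log2 signal of 11.24 in overexpressing cells and 11.37 in control cells, a difference of -0.14. Cyp51 encodes the cytochrome P450 that removes a methyl group from lanosterol. Its bright probe set, 1422533_at, had 9.66 in overexpressing cells and 9.54 in control cells, a difference of 0.12. Both differences were smaller than the SD between probe sets of a gene. The second probe set of Cyp51, 1422534_at, was dim and lay the other way. It had 4.96 in overexpressing cells, under the floor, and 6.61 in control cells, a difference of -0.96 with the floor and of -1.66 without it. The mean over both probe sets of Cyp51 was -0.42 with the floor, so that the direction of this gene turns with the choice of probe set.

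Among the 5 measured genes other than Fdft1, on the probe set of highest signal, Sqle at -0.14 had the difference of largest size. Of all 5609 bright genes, 2149, or 38.3%, differed by no more than Sqle did. Within 0.23, the SD between probe sets, stood 5 of the 6 members, against 58.0% of all bright genes. Signals of different probe sets cannot be set against each other on these arrays, so no order of level among the genes is given.

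**Figure D2:**
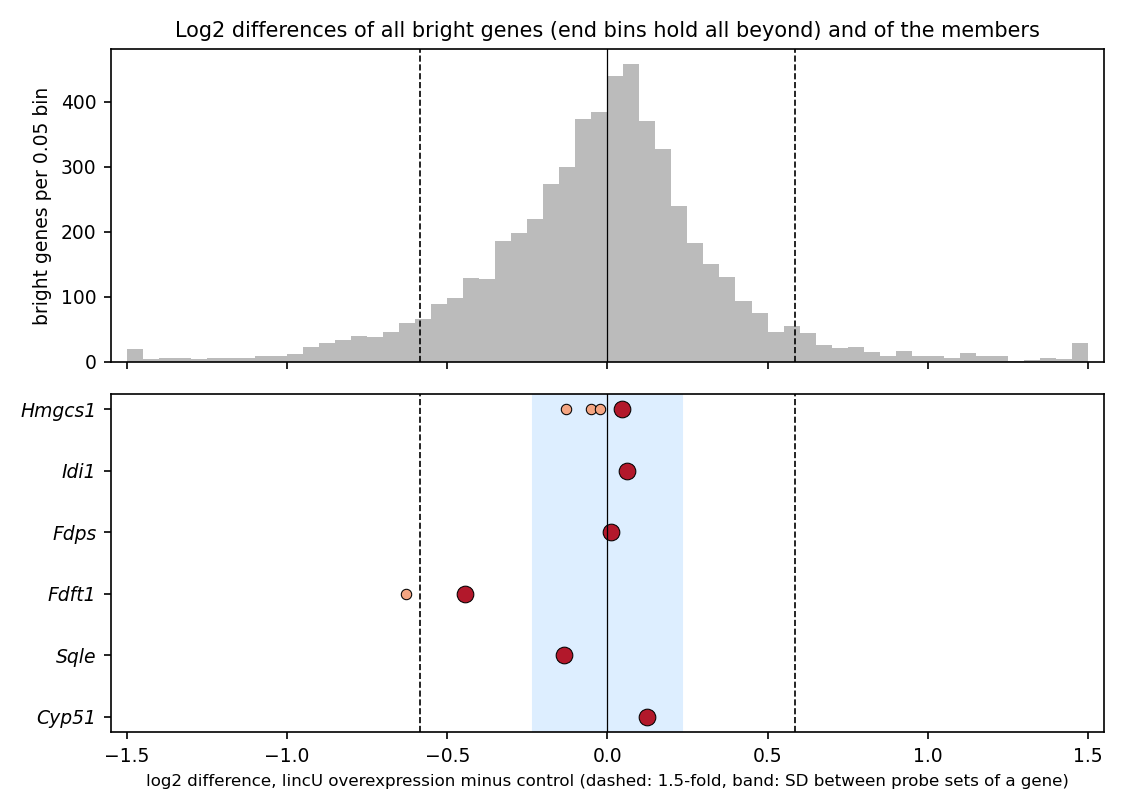
Upper panel: number of bright genes by log2 difference, overexpression minus control, in bins of 0.05, with all values past 1.5 in the end bins. Lower panel: each bright probe set of the 6 measured genes, with the large dark point the probe set of highest signal, the dashed lines 1.5-fold and the shaded band 1 SD between probe sets of a gene (0.23). The points of 5 genes lie inside the band, and both points of Fdft1 lie left of it.

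Fdft1 is the only measured member on chromosome 14, whose genes differed together by position between these 2 arrays. The order of genes was taken from assembly GRCm38.p6, and the bounds of the stretches came from earlier results of these data. Fdft1 lies in the stretch from Tspan14 to Tmtc4, where the median over 137 bright genes was -0.59 and 130 were lower in overexpressing cells. The 70 bright genes of the stretch from Abhd6 to Ghitm, on the same chromosome, had a median of 1.08. The 5402 bright genes with no position on chromosome 14 had a median of 0.01. With the median of its stretch subtracted, Fdft1 stood at 0.15 on 1438322_x_at and at -0.04 on 1448130_at. Of the 136 other bright genes of the stretch, 96 were lower than the first probe set and 58 lower than the second.

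The bright genes next to Fdft1 were lower as well. On one side, Ctsb, which encodes the lysosomal protease cathepsin B, had a log2 signal of 10.69 in overexpressing cells and 10.89 in control cells, a difference of -0.20. Beyond it Wdfy2 differed by -0.80 and Ints6, a subunit gene of the Integrator complex, by -0.18. On the other side Mtmr9, a gene of the myotubularin family, differed by -0.52, Pinx1, which encodes a telomerase inhibitor, by -0.42 and Ints9, a further Integrator subunit gene, by -0.88. Fdft1 lay within the range of these 6 neighbours on both probe sets. Its lower signal therefore cannot be told apart from that of the stretch it lies in. The other measured members lay on chromosomes 3, 5, 13 and 15, whose bright genes had medians of 0.01, 0.03, 0.01 and -0.03.

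**Figure D3:**
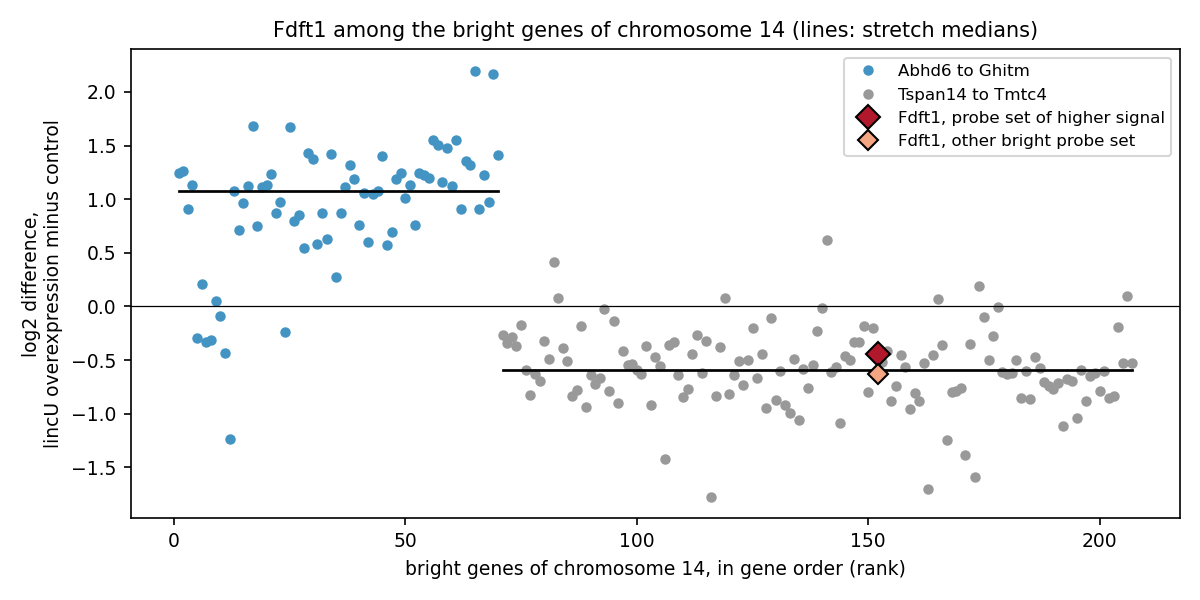
Log2 difference, overexpression minus control, of the 207 bright genes of chromosome 14 in gene order. Black lines are the medians of the stretches, 1.08 and -0.59, and diamonds are the bright probe sets of Fdft1, at -0.44 and -0.63, which stand on either side of the median of their stretch.

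Of 15 other listed genes of cholesterol synthesis, 11 were measured and 10 were bright, 5 higher and 5 lower in overexpressing cells. The median of the 11 was -0.06, and none was 1.5-fold different on the probe set of highest signal, which is near the shares of 4.65% higher and 6.69% lower over all bright genes. Acat2 and Tm7sf2 had no probe set of their own here and were not analysed. Pmvk, the phosphomevalonate kinase gene, had the lowest value, with 8.87 in overexpressing cells against 9.38 in control cells, a difference of -0.52. Mvk, the gene of the mevalonate kinase that acts just before it, had the highest, at 1.25 times the control signal, a difference of 0.32. The neighbouring steps of the pathway thus lay on opposite sides of 0.

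Ebp and Nsdhl, singled out after their values were seen, encode enzymes that act on sterols after lanosterol and are both X-linked. Ebp differed by -0.46 and Nsdhl by -0.45, while the 181 bright genes of the X chromosome had a median of -0.04. Bright probe sets of 2 further genes, also singled out afterwards, lay on opposite sides of 0. Lss, the lanosterol synthase gene, differed by 0.07 and -0.54, and Mvd, the mevalonate diphosphate decarboxylase gene, by 0.29 and -0.15. Over the 16 bright genes measured in the pathway, members included, 9 were higher and 7 lower, with a median of 0.03. Of them 10, or 62.5%, stood within 0.23, against 58.0% of all bright genes.

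Genes that control SREBP had similar signals on both arrays, on the probe set of highest signal. All 5 of those measured, of 8 listed, were bright and, on the probe set of highest signal, stood within 0.23, with a median of -0.04. Srebf2, whose product mainly drives cholesterol synthesis, had 9.80 in overexpressing cells and 9.77 in control cells, a difference of 0.03. Srebf1, whose products act more on fatty acid synthesis, had 10.001 in overexpressing cells and 9.955 in control cells, a difference of 0.05. The largest difference was that of Scap, the escort protein gene, with 9.23 in overexpressing cells and 9.46 in control cells, or -0.23, at the edge of that SD. Insig2, the relative of the unmeasured Insig1, differed by -0.04 on its probe set of highest signal and by 0.31 and 0.19 on its other 2, which were also bright. Mbtps1, which encodes a protease that cuts SREBP and was singled out for its probe sets, differed by -0.17 on one bright probe set and by 0.34 on another.

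Of 5 listed genes of sterol uptake and transport, 3 were measured and 2 bright, and none of the 3 was a gene of uptake. Stard4, which encodes a cytosolic sterol carrier, differed by 0.03 and Npc2, a lysosomal cholesterol-binding protein gene, by 0.03. Of 9 genes of the isoprenoid branches 5 were measured and 4 bright, all within 0.23, from Fnta, a prenyltransferase subunit gene, at -0.10 to Nus1, a dolichol synthesis gene, at 0.11.

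Of 7 listed genes of sterol efflux and the sterol-activated LXR receptors, 4 were measured, all bright. The genes of the receptors themselves were not among the 4. Among the 4 genes, 3 were lower and 1 higher in overexpressing cells, with a median of -0.48. Of these, 2 were 1.5-fold lower, where 6.69% of all bright genes stood. Apoe, which encodes the lipoprotein component apolipoprotein E, had 11.09 in overexpressing cells and 11.80 in control cells, a difference of -0.71. Abcg1, a sterol transporter gene, had 7.64 in overexpressing cells and 8.33 in control cells, a difference of -0.69. Mylip, a ubiquitin ligase gene, differed by -0.27. Abca1, the transporter gene that loads cholesterol onto lipid-poor apolipoproteins, lay the other way, with 9.93 in overexpressing cells and 9.50 in control cells, a difference of 0.43. Of the 4 genes, Abca1 alone was higher, and LXR activity was not tested.

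Of the 10 genes of fatty acid synthesis, all measured and 8 bright, 4 were higher and 4 lower. Their median was -0.28 over all 10 and -0.10 over the bright ones. Me1, the cytosolic malic enzyme gene that supplies NADPH, was the one bright gene past 1.5-fold, where 4.65% of all bright genes were higher, with 10.05 in overexpressing cells against 9.24 in control cells, a difference of 0.81. Its second bright probe set had 9.67 in overexpressing cells against 8.78 in control cells, a difference of 0.89. Both probe sets of Me1 were thus higher by more than the SD between probe sets. Fads1, a fatty acid desaturase gene, had the lowest bright value, at -0.40. The members and these lists were chosen with results of these data known, and the lists' values are descriptions of 2 arrays.

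**Figure D4:**
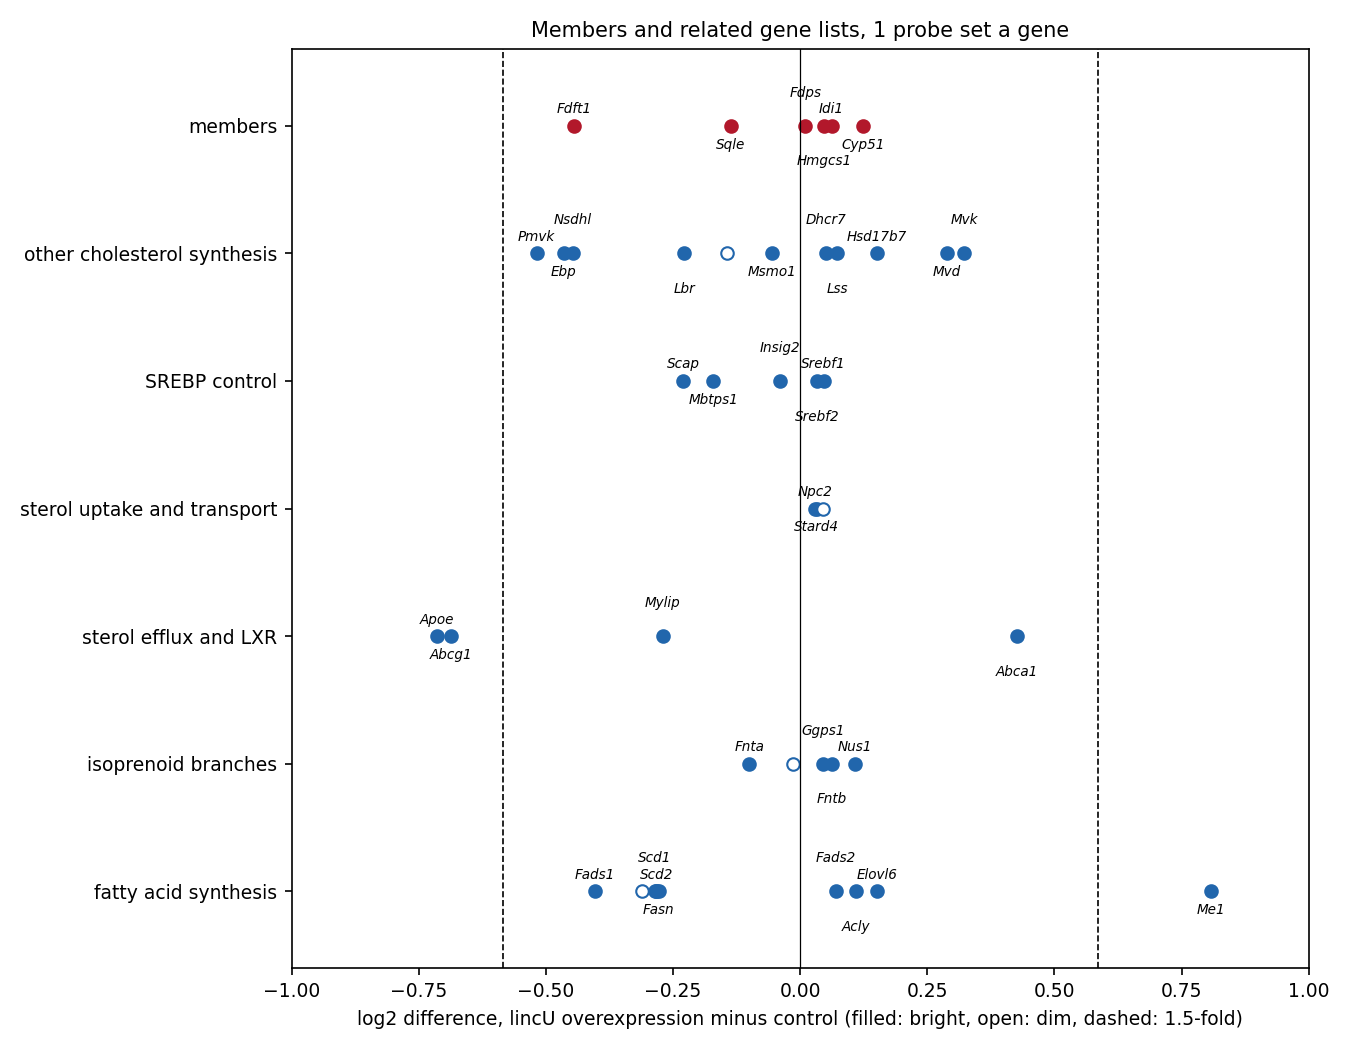
Log2 difference, overexpression minus control, of the probe set of highest signal of each measured gene, by list. Filled points are bright, open points dim, and dashed lines 1.5-fold. The members and the other genes of cholesterol synthesis all lie between the dashed lines, while Apoe and Abcg1 lie left of them and Me1 right.

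The promoters of 3 measured members, Hmgcs1, Idi1 and Cyp51, are shown with their matches to TCACNCCAC. That is a form of the sterol regulatory element, the site that SREBP is known to bind, and other forms were not searched. Sequences come from RefSeq, build GRCm38.p6, and run 5′ to 3′ on the gene's strand from 250 bases before to 50 after its start. Of the 7 genes, 4 were in the table used, those printed and Insig1. Hmgcs1 lies at chr13:119690101-119690400 on the plus strand, Idi1 at chr13:8885356-8885655 on the plus strand and Cyp51 at chr5:4104648-4104947 on the minus strand. Capitals mark matches on either strand. The motifs were TCACNCCAC for this form of the element, CCAAT for the core of NF-Y sites and GGGCGG for the core of SP1 sites.
Hmgcs1: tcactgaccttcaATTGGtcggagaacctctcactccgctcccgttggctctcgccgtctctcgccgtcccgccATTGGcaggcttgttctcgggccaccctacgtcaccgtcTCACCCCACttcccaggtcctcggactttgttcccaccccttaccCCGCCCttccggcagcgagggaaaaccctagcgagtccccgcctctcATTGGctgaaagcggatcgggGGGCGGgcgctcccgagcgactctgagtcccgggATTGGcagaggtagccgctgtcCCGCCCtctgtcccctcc
Idi1: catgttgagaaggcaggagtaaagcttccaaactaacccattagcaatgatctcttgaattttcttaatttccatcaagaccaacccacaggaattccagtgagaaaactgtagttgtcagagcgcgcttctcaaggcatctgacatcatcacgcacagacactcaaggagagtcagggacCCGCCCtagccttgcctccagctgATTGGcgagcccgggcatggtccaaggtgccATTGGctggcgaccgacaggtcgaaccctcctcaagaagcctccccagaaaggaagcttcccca
Cyp51: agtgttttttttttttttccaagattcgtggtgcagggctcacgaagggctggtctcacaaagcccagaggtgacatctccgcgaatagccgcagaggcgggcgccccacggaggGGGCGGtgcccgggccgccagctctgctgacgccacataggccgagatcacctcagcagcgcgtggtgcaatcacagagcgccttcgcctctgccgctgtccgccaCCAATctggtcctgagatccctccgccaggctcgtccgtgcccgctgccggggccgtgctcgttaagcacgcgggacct

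Hmgcs1 held 1 match to this form of the sterol regulatory element, TCACCCCAC, with its first base at position -137 from the start. Over 27025 promoters of this length, 1 for each gene, 1.22% held a match to it. Idi1, Cyp51 and Insig1 held 0 matches to it in this window, which says nothing of SREBP binding. Hmgcs1 also held 4 matches to CCAAT and 3 to GGGCGG. Idi1 held 2 matches to CCAAT and 1 to GGGCGG, and Cyp51 held 1 of each. Over all promoters, 37.9% held CCAAT and 35.9% GGGCGG, and no matches of different motifs overlapped in these 3 promoters. A match describes the letters of the window, and SREBP binding was not measured.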

How the data were processed

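RNA of 1 lincU-overexpressing and 1 control culture was hybridised to Affymetrix 3' arrays, per the labels' protocols. The authors deposited log2 signals, a scale read here from their range. MAS5 and affy are named, without version or role, in the submitters' processing notes.

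Probe sets were named through the platform's annotation, with symbols updated through RefSeq (GRCm38.p6). Of 16994 probe sets, 15273 had 1 gene name, and only these were used. Values were compared as deposited. The probe set of highest mean signal stood for its gene, and a probe set under the floor on both arrays was given a difference of 0. No test was possible with 1 array per group.

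The text names all members, each bright gene of the 6 related gene lists past 1.5-fold, the bright extremes of those lists, Srebf1, Srebf2, Scap, Insig2 and the neighbours of Fdft1. Members and lists were chosen with earlier results of these data known, and some listed genes are not reported here. Alternatives were other scalings, floors, a pseudocount of 50 on linear signals, other probe set choices and thresholds, and subtraction of a stretch median. Scripts, in Python 3.11.15 with numpy 2.4.6, pandas 2.3.3 and statsmodels 0.14.6, were tested on simulated arrays.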

Additional observations from a re-analysis of the deposited data

How the results depend on the processing

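A value was taken to have moved if it changed by at least 0.23, the SD between probe sets of a gene. Under 9 alternatives the median of the members stayed between -0.09 and 0.08, and under 8 that of the other cholesterol synthesis genes between -0.15 and 0 and that of fatty acid synthesis between -0.28 and -0.14. No member was 1.5-fold higher under any of 11 alternatives. Of those 11, using only probe sets of unmixed type (without _s_at, _x_at and _a_at) gave 1 member, Fdft1, as 1.5-fold lower, and the other 10 gave 0. That setting replaces the probe set at -0.44 by the one at -0.63 and leaves Idi1 with none. Among single genes, Cyp51 moved to -0.42 with probe sets averaged and Fdft1 to 0.15 with its stretch median subtracted. Fdps turned to -0.01 with a loess trend subtracted and to -0.03 with quantile normalization. Hmgcs1 turned to -0.04 with probe sets averaged and to -0.05 without shared or mixed types. Idi1 stayed higher and Sqle lower under all settings that gave a value. Centring on array medians moved the median of all bright genes to 0.06. No paired analysis was possible because each group has 1 array. Dim probe sets near the floor limit what can be said of Cyp51, Fdps and Fdft1 beyond their bright probe sets.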
